A study of Mus musculus with 60 samples.

Results

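The 33 genes described here encode the proteins that bring glucose into the cell, carry it through glycolysis to lactate, pass it through the pentose phosphate pathway, or set how much pyruvate the mitochondria use. They were chosen by name: a gene entered where the platform annotation gives exactly its symbol to a probe set, which is the group of short oligonucleotides that reads a transcript on the array. Of the 33 genes, 30 had such a probe set, 72 probe sets in all, and 29 were tested among the 13181 genes tested in the data set. Gpi1, Eno1 and G6pdx were not analysed here, and Gapdh was read only from control probe sets, which were described but not tested.

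Transcript levels were measured on Affymetrix MOE430A and MOE430B arrays in undifferentiated mouse embryonal carcinoma cells, the stem cells of teratocarcinomas. The groups were the 4 sublines CL6G26, CL6G36, CL6G45 and CL6G52, their parent strain P19CL6, and the line P19 from which P19CL6 was derived. Each strain had 5 replicates, each on both array types, which gives 60 arrays. The labels give every strain the same origin, a male C3H embryo, and the same medium, alpha-MEM with fetal calf serum, and name no added agent and no engineered allele in any of them. They state neither what the sublines were derived for, nor whether a subline is 1 clone. The replicates are labelled biological replicates, without a word on whether each was a separate culture, and a p-value here speaks only of the spread among these samples, and that spread may include a technical share.

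Glycolysis splits glucose into pyruvate and yields ATP without oxygen. Its rate is governed mainly at glucose uptake, at hexokinase and at phosphofructokinase, and in pluripotent and tumour cells much of the pyruvate is turned into lactate. The pentose phosphate pathway draws on glucose 6-phosphate to make NADPH and the ribose of nucleotides. Most steps are served by several isoforms from separate genes, and many of these genes are targets of the oxygen-regulated factor HIF-1 and of MYC.

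Short stretches of regulatory sequence are shown for 4 of the genes whose levels differed most between strains: Pgm1 and Pgm2, which were high in different sublines, and Aldoc and Eno2. Each stretch is the 250 bases before the RefSeq start of the gene in build GRCm38.p6, 5′ to 3′ on the strand of the gene. Capitals mark the letters ACGTG, a form of the core of the hypoxia response element bound by HIF-1, or its reverse complement CACGT. The form GCGTG was not searched. Both strands were searched, and the motif overlaps the E-box CACGTG. The Pgm1 window, chr4:99929201-99929450 on the plus strand, held 2 such places.
Pgm1: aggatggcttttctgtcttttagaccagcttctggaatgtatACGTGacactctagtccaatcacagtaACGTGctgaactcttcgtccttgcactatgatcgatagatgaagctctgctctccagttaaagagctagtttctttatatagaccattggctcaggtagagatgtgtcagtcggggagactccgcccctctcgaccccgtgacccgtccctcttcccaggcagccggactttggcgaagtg
The Pgm2 window, chr5:64092689-64092938 on the plus strand, held 1.
Pgm2: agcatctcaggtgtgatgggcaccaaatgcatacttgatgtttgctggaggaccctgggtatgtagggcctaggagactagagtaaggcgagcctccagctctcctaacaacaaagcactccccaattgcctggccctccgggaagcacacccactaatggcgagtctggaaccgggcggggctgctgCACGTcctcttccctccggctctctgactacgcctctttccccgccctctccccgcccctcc
The windows of Aldoc, chr11:78322823-78323072 on the plus strand and the first of its listed starts, and of Eno2, chr6:124769674-124769923 on the minus strand, held no ACGTG or CACGT. The Aldoc window does hold the unsearched form GCGTG, left in small letters.
Aldoc: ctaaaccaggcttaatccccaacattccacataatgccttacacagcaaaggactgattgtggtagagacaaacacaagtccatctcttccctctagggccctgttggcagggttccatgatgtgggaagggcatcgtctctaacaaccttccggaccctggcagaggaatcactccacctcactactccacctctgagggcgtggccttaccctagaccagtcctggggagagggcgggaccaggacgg
Eno2: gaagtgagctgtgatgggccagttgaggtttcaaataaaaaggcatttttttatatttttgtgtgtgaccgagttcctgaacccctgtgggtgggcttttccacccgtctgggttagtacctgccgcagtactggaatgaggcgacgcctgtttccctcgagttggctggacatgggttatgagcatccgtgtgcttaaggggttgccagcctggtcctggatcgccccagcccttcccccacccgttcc
The motif was found in 5444 of 32851 such windows over all genes, or 16.6%. It was found in 19 of 42 windows of the tested glucose genes, or 45.2%, and some of these windows overlap because a gene can have several starts. Of the 28 tested genes with a window, 15 held the motif at least once. Slc2a3 had no window. A match describes the letters and is not a measured binding site.

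All levels below are log2 signals after quantile normalization within an array type, so a difference of 1 is a 2-fold change. All 29 tested genes were read on MOE430A, where the floor of detection was a log2 signal of 4.61. A gene passed the test at a limma adjusted p under 0.05, with Benjamini-Hochberg adjustment over all probe sets tested on the array type.

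P19 replicates 4 and 5 and CL6G52 replicate 1 stood apart from the rest of the strain on their label. P19 replicate 4 correlated best with P19CL6 replicate 1 (r = 0.9765 over probe sets), and P19 replicate 5 with P19 replicate 4 (r = 0.9707). In turn, P19CL6 replicates 3 and 4 correlated best with P19 replicate 4 (r = 0.9754 and 0.9741) and P19CL6 replicate 5 with P19 replicate 5 (r = 0.9659), each a little above its best match among P19CL6 arrays (r = 0.9731, 0.9721 and 0.9645). CL6G52 replicate 1 correlated best with CL6G45 replicate 3 (r = 0.9661). The comparisons that name P19 or CL6G52 are given with and without these arrays. All 6 strains share 1 estimate of the spread, so these arrays also enter the tests of the other sublines. In all, 25 of 30 arrays on MOE430A were nearest to an array of their own strain, and median signals ran from 30.2 to 53.4. Of 10 embryonal carcinoma markers, 8 lay above the floor on all 30 arrays, and the pluripotency factor Pou5f1 ran from 11.13 to 11.67. Of the markers of other cell types, 1 of 7 for endoderm, none of 6 for mesoderm and muscle, 2 of 6 neural and 2 of 6 fibroblast markers were above the floor on every array. In such bulk samples, fewer cells of a type and less RNA per cell cannot be told apart.

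P19CL6 was first set against P19, the line it came from. Transcripts of 6 of the 29 genes were higher in P19CL6, and these were spread over the pathway: Pgm1 at the branch to glycogen, Pfkm and Pfkfb3 at phosphofructokinase, Eno2 near the lower end, Tkt in the pentose phosphate pathway and Pdk1 at the mitochondrial gate. Among all genes tested, 4.45% passed in either direction, 2.57% higher and 1.88% lower in P19CL6. The fitted values of Eno2 and Pfkfb3 exceeded 2-fold, as did those of 0.652% of all genes, but 3 of 5 P19 arrays lay under the floor for both, and neither exceeded it with signals raised to the floor. The median difference was 0.163 over the 29 genes and 0.00562 over all genes, and 23 of the 29 differences were positive.

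Eno2, the enolase isoform best known from neurons, had log2 signals of 5.38, 5.83, 5.69, 5.57 and 5.30 in P19CL6, against 2.82, 3.58, 3.25, 5.67 and 5.06 in P19. P19 replicates 1, 2 and 3 were under the floor, whereas replicates 4 and 5 were at or near the level of P19CL6. The fitted difference was 1.48 ± 0.32 (SE, n = 5 each), with an adjusted p of 0.0119 by limma, and its size rests in part on signals under the floor. Pfkfb3 makes fructose 2,6-bisphosphate, the strongest activator of phosphofructokinase. Its log2 signals were 6.12, 6.24, 6.01, 6.26 and 5.85 in P19CL6, against 4.13, 4.58, 3.79, 6.34 and 6.16 in P19. The first 3 P19 arrays were again under the floor and the other 2 lay inside the P19CL6 range or just above it. The fitted difference was 1.10 ± 0.30 (adjusted p = 0.0319). With signals raised to the floor, the differences were 0.64 for Eno2 and 0.83 for Pfkfb3 (adjusted p = 0.0369 and 0.0476); over all alternatives the adjusted p ran from 1.92e-10 to 0.196 for Eno2 and from 4.02e-09 to 0.224 for Pfkfb3.

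Pdk1 phosphorylates and shuts off pyruvate dehydrogenase, which keeps pyruvate out of the mitochondria. It had 8.66, 8.66, 8.76, 8.57 and 8.56 in P19CL6, against 7.54, 7.73, 7.30, 8.67 and 8.79 in P19, a difference of 0.63 ± 0.19 (adjusted p = 0.0429). Pgm1, which interconverts glucose 1-phosphate and glucose 6-phosphate, had 8.46, 8.57, 8.63, 8.45 and 8.11 in P19CL6, against 7.47, 7.56, 7.41, 8.31 and 8.31 in P19. Its difference was also 0.63 (adjusted p = 0.0365). Both genes showed the same split of the P19 arrays into 3 low and 2 high ones. Pfkm, the muscle-type phosphofructokinase subunit, was 0.47 higher (adjusted p = 0.0253). Tkt, the transketolase that links the pentose phosphate pathway back to glycolysis, had 10.73, 10.67, 10.67, 10.73 and 10.69 in P19CL6, against 9.90, 10.19, 9.95, 10.66 and 10.55 in P19. It was the only 1 of the 29 genes whose P19CL6 and P19 arrays did not overlap (2.23% of all genes did not), with a difference of 0.45 ± 0.10 (adjusted p = 0.0122).

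The remaining steps did not pass with all arrays in. Aldoc, the brain-type aldolase, differed by 0.72 (adjusted p = 0.0926), Pdha1, the catalytic subunit of pyruvate dehydrogenase, by 0.29 (adjusted p = 0.0523), and Hk2, the inducible hexokinase, by 0.25 (adjusted p = 0.0624). None of the 4 transporters passed, with differences from -0.29 for the lactate exporter Slc16a3 to 0.16 for the monocarboxylate transporter Slc16a1. Among the highly expressed housekeeping steps, the difference was 0.01 for the pyruvate kinase Pkm and 0.04 for the phosphoglycerate mutase Pgam1.

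Without P19 replicates 4 and 5, 17 of the 29 genes passed, 14 higher and 3 lower in P19CL6, against 19.6% of all genes in either direction, 10.5% higher and 9.09% lower. For each of these 17 genes, P19 replicates 4 and 5 lay closer to P19CL6 than to the other P19 replicates. This was largely set by the choice of genes, which passed because the other P19 replicates differed from P19CL6. The 2 arrays left out also stood apart over all probe sets, and the share of all genes placed in this way was not counted. The genes added on the high side were Aldoc (1.14), Pdha1 (0.51), Hk2 (0.37), the liver-type phosphofructokinase Pfkl (0.39), the muscle-type enolase Eno3 (0.39), the phosphoglycerate kinase Pgk1 (0.30), the lactate dehydrogenase subunit Ldha (0.30) and the main aldolase Aldoa (0.21). The 3 lower ones were the high-affinity glucose transporter Slc2a3 (-0.20), Slc16a3 (-0.47) and the triose phosphate isomerase Tpi1 (-0.21). Since every P19 array left was under the floor for them, the P19CL6 mean was set against the floor, which made P19CL6 at least 2.79-fold higher for Pfkfb3 and at least 1.92-fold higher for Eno2, with an adjusted p of 4.02e-09 and 1.92e-10.

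The result rests on P19 replicates 1, 2 and 3. Leaving out any 1 of them left 0 of the 29 past the limma test (10 to 12 had an unadjusted p under 0.05), and leaving out replicate 4 or 5 gave 11. Leaving out P19CL6 replicates 1 and 2 together also gave 0 of 29 (10 at an unadjusted p under 0.05), against 0.0759% of all genes, 0.0303% higher and 0.0455% lower. Under the deposited scaling of the arrays Eno2 alone passed, with a difference of 1.53 and an adjusted p of 0.0356, and a fit to these strains alone gave 0 (11 at an unadjusted p under 0.05). The ratio of 3′ to 5′ Gapdh control signal, a measure of RNA integrity, was 0.835 to 0.887 in P19CL6, against 0.908 to 0.954 in P19 on MOE430A; its part in the differences was not tested. Summed fibroblast marker signal was 90.2 to 158 in P19CL6, against 109 to 264 in P19, and its part was not tested either.

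**Figure D1:**
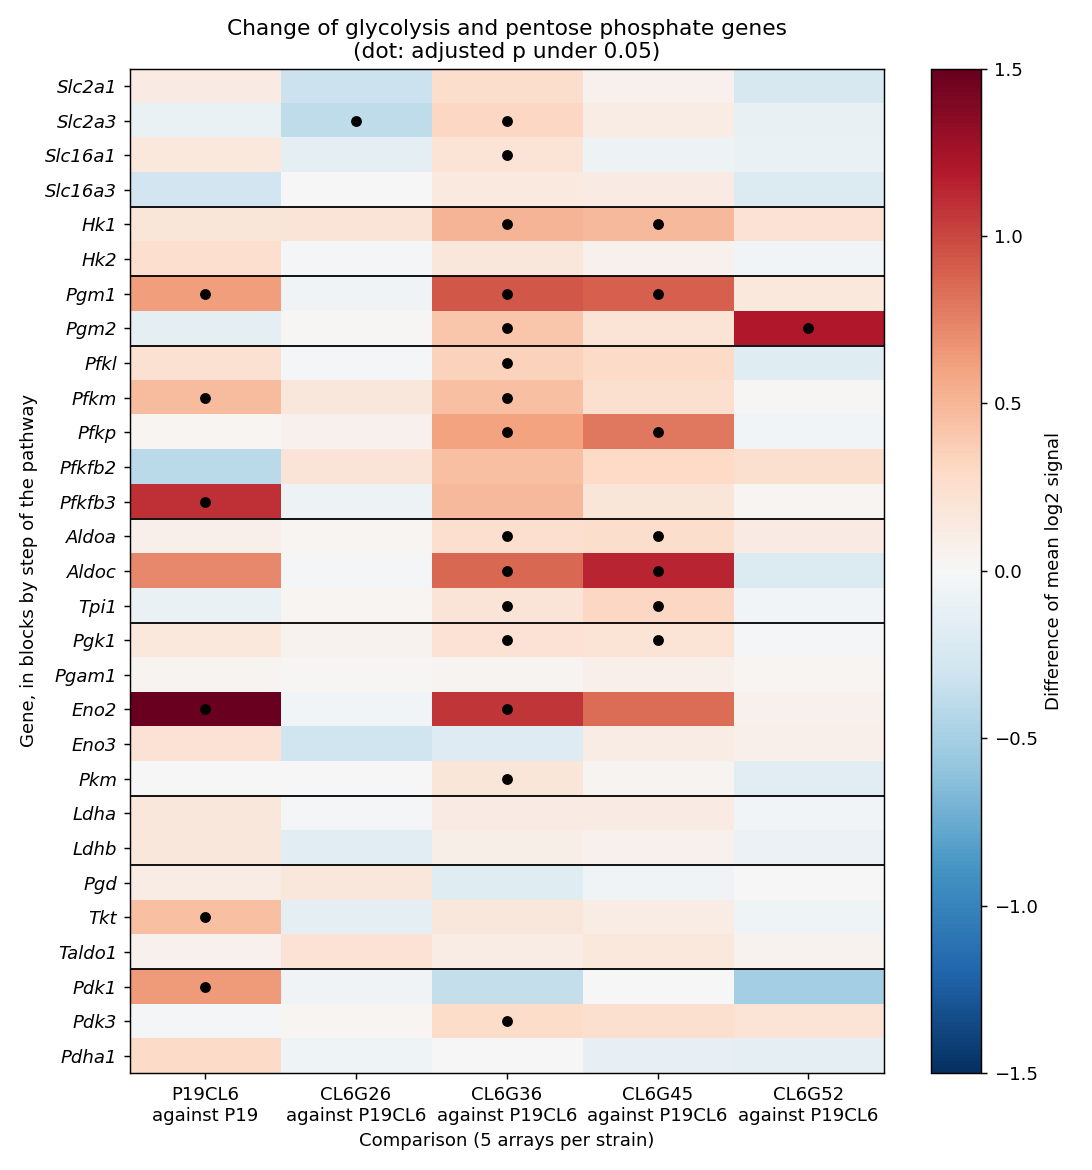
Differences of mean log2 signal for the 29 tested genes (rows, in pathway order) in 5 comparisons (columns), with a dot where the limma adjusted p was under 0.05. The dots fall on 6 genes for P19CL6 against P19, and on 1, 15, 7 and 1 genes for CL6G26, CL6G36, CL6G45 and CL6G52 against P19CL6.

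The 4 sublines were each compared with P19CL6. These 4 comparisons share the P19CL6 arrays, so their results are not independent of each other. In CL6G36, 15 of 29 glucose genes passed, all of them higher than in P19CL6, while 13.6% of all genes passed in either direction and 6.85% were higher. The 15 genes ranged from Slc2a3 at uptake to Pkm at the formation of pyruvate, and left out both lactate dehydrogenase subunits and the 3 pentose phosphate genes tested. The median difference was 0.213 over the 29 genes and -0.00366 over all genes, and 25 of 29 differences were positive. The arrays of CL6G36 and P19CL6 did not overlap for 10 of the 29 genes, against 12.3% of all genes.

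At uptake, Slc2a3 had log2 signals of 12.03, 12.09, 12.10, 11.93 and 12.04 in CL6G36, against 11.73, 11.78, 11.78, 11.61 and 11.78 in P19CL6. The groups were apart, and the difference was 0.31 ± 0.06 (SE, n = 5 each; adjusted p = 0.00075). Slc16a1 was 0.21 higher (adjusted p = 0.019), while the glucose transporter Slc2a1 differed by 0.26 and did not pass on its brightest probe set (adjusted p = 0.0921). At phosphorylation, Hk1, the general hexokinase, had 7.77, 7.76, 7.86, 7.48 and 7.33 in CL6G36, against 7.29, 7.41, 6.92, 6.98 and 7.04 in P19CL6. One CL6G36 array lay inside the P19CL6 range, and the difference was 0.51 ± 0.13 (adjusted p = 0.00434). Hk2 differed by 0.17 and did not pass (adjusted p = 0.149).

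Pgm1 was high in both CL6G36 and CL6G45. It had 9.50, 9.20, 9.39, 9.34 and 9.43 in CL6G36 and 9.54, 9.15, 9.47, 9.34 and 9.23 in CL6G45, against 8.46, 8.57, 8.63, 8.45 and 8.11 in P19CL6. Both sublines lay above every P19CL6 array, by 0.93 ± 0.18 in CL6G36 (1.90-fold, adjusted p = 0.000437) and by 0.90 ± 0.18 in CL6G45 (1.87-fold, adjusted p = 0.000685). Pgm2, whose human counterpart acts mainly on pentose phosphates, was 0.42 higher in CL6G36 (adjusted p = 0.0258), and differed by 0.21 in CL6G45 without passing.

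The phosphofructokinase subunits rose in CL6G36: Pfkm by 0.45 (adjusted p = 0.0126), Pfkl by 0.35 (adjusted p = 0.0486) and the platelet-type Pfkp by 0.60 (adjusted p = 0.028). The regulatory enzyme Pfkfb3 was at a difference of 0.49 and did not pass (adjusted p = 0.297), and its array 1 in CL6G36, at 5.91, was far below the other 4. Pfkfb2, the other regulatory isoform tested, was near the floor, with 1 to 3 of 5 arrays above it in each strain. Among the aldolases, Aldoc had 8.67, 8.46, 8.81, 8.56 and 8.54 in CL6G36, against 7.70, 8.01, 7.73, 7.36 and 7.91 in P19CL6. No arrays overlapped, and the difference was 0.87 ± 0.26 (1.82-fold, adjusted p = 0.0176). Aldoa rose by 0.25 and Tpi1 by 0.20 (adjusted p = 0.0182 and 0.0487).

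At the steps that yield ATP and pyruvate, Eno2 had 6.36, 6.68, 6.95, 6.37 and 6.76 in CL6G36, against 5.38, 5.83, 5.69, 5.57 and 5.30 in P19CL6. All CL6G36 arrays were above all P19CL6 arrays, by 1.07 ± 0.32 (2.10-fold, adjusted p = 0.0181), and Eno2 was the only 1 of the 29 genes to pass and exceed 2-fold, as did 1.46% of all genes. Pgk1 rose by 0.21 and Pkm by 0.19 (adjusted p = 0.0337 and 0.0334). Eno3 differed by -0.19 and Pgam1 by 0.04, and neither passed. Pdk3, an isoform of the pyruvate dehydrogenase kinase, rose by 0.27 (adjusted p = 0.0346). Pdk1 went the other way without passing, at 8.12, 8.21, 8.47, 8.33 and 8.28 in CL6G36, a difference of -0.36 (adjusted p = 0.206), although no CL6G36 array reached the P19CL6 arrays. The spread used in this test includes the split of the P19 arrays for Pdk1. Over its 21 alternatives the limma adjusted p ran from 0.00469 to 0.506, and Pdk1 passed in 1. In the pentose phosphate pathway the differences were -0.18 for the dehydrogenase Pgd, 0.16 for Tkt and 0.11 for the transaldolase Taldo1, and Ldha differed by 0.12.

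Several of these changes were small and close to the threshold. Without CL6G36 replicate 1, without P19CL6 replicate 5, or without P19CL6 replicates 1 and 2 together, 9 genes passed in each case; in the last, 11.6% of all genes passed, 5.93% higher and 5.71% lower. Under the deposited scaling of the arrays only Pgm1 passed in CL6G36, with a difference of 0.89 and an adjusted p of 0.0104; over its 21 alternatives Pgm1 passed in 21, with an adjusted p from 1.1e-05 to 0.0104.

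CL6G45 shared a subset of these differences. In it 7 of 29 genes passed, all higher than in P19CL6, against 13.2% of all genes in either direction and 6.55% higher. The 7 were Hk1, Pgm1, Pfkp, Aldoa, Aldoc, Tpi1 and Pgk1, and each of them had also passed in CL6G36, where they were 7 of 15; both counts rest on the same P19CL6 arrays. The median difference was 0.16 over the 29 genes and 0.00346 over all genes, with 26 of 29 positive. Arrays did not overlap for 12 of the 29 genes, against 13.7% of all genes.

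Aldoc was highest in CL6G45, at 8.96, 8.72, 8.84, 9.11 and 8.81, against 7.70, 8.01, 7.73, 7.36 and 7.91 in P19CL6. The arrays were far apart and the difference was 1.14 ± 0.26 (2.21-fold, adjusted p = 0.00213), the only 1 of the 29 genes past 2-fold, as were 1.37% of all genes. Pfkp had 7.29, 7.13, 7.30, 7.24 and 7.71 in CL6G45, against 6.78, 6.97, 6.52, 6.60 and 5.86 in P19CL6, a difference of 0.79 ± 0.19 (adjusted p = 0.00446). CL6G45 replicate 5 was the highest and P19CL6 replicate 5 the lowest of these arrays. Tpi1 had 11.56, 11.51, 11.51, 11.58 and 11.49 in CL6G45, against 11.23, 11.30, 11.26, 11.12 and 11.16 in P19CL6. Its arrays were closely grouped within each strain, and the difference of 0.31 ± 0.07 passed (adjusted p = 0.00174). Hk1 rose by 0.49, Aldoa by 0.26 and Pgk1 by 0.21 (adjusted p = 0.0066, 0.0156 and 0.0427).

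Eno2 had 6.03, 6.44, 6.31, 6.48 and 6.70 in CL6G45, above every P19CL6 array, but its difference of 0.83 did not pass (adjusted p = 0.0713). The spread used in this test includes the split of the P19 arrays for Eno2. Over its 21 alternatives the limma adjusted p ran from 0.000777 to 0.148, and Eno2 passed in 3. Slc2a3, Slc2a1 and Slc16a1 differed by 0.11, 0.07 and -0.08, and none passed on its brightest probe set. Under the deposited scaling Aldoc, Pfkp and Pgm1 passed in CL6G45. Each of these 3 passed in all 21 alternatives of that comparison.

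Summed endoderm and summed mesoderm marker signals were lower in CL6G36 and CL6G45, and also in CL6G52, where Pgm2 alone among the glucose genes passed. Summed endoderm marker signal was 157 to 186 in CL6G36, 154 to 197 in CL6G45 and 172 to 229 in CL6G52, against 239 to 335 in P19CL6. The summed mesoderm and muscle signal was 101 to 118 in CL6G36, 120 to 149 in CL6G45 and 123 to 169 in CL6G52, against 196 to 305 in P19CL6. The sums add linear signals, so the brightest markers in P19CL6, Foxa2 for endoderm and Mixl1 for mesoderm, weigh most. Foxa2 averaged 4.91, 5.52 and 5.01 in CL6G36, CL6G45 and CL6G52, against 6.90 in P19CL6. Mixl1 averaged 4.21, 5.06 and 5.27, against 6.83, with every CL6G36 array under the floor. Dab2, an endoderm marker, averaged 6.07 in CL6G52, against 5.59 in P19CL6. Neural and fibroblast sums overlapped those of P19CL6. The neural sum was 370 to 431 in CL6G36, 322 to 427 in CL6G45 and 370 to 463 in CL6G52, against 361 to 410. The fibroblast sum was 110 to 134, 118 to 160 and 114 to 164 in these sublines, against 90.2 to 158. Of 10 embryonal carcinoma markers, 1 was higher and 2 lower in each of CL6G36 and CL6G45. Among all genes, 6.85% were higher and 6.71% lower in CL6G36, and 6.55% and 6.68% in CL6G45. Tdgf1, 1 of the lower ones, differed by -0.37 in CL6G36 and -0.35 in CL6G45 (adjusted p = 0.0125 and 0.019). Nanog averaged 7.66 in CL6G36 and 7.74 in CL6G45, against 8.76 in P19CL6, and Utf1, another pluripotency marker, went the other way, by 0.56 and 0.69 (adjusted p = 0.000226 and 1.87e-05). In all, the summed embryonal carcinoma marker signal was 9860 to 10700 in CL6G36 and 10100 to 10800 in CL6G45, against 9750 to 10700 in P19CL6. The part of these shifts in the glucose genes was not tested.

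**Figure D2:**
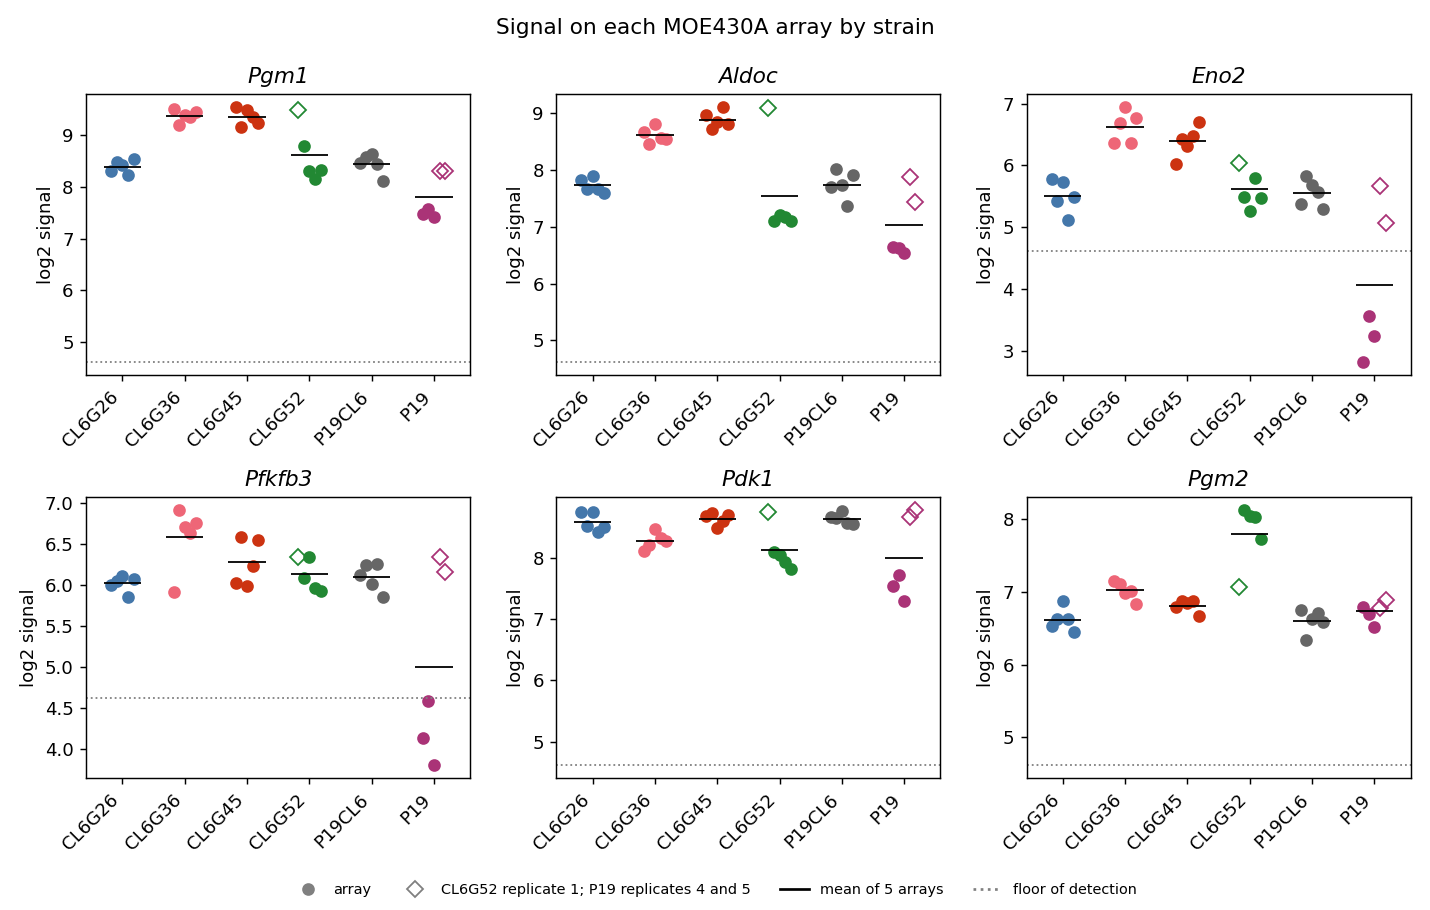
Log2 signal on each MOE430A array (y axis) by strain (x axis) for Pgm1, Aldoc, Eno2, Pfkfb3, Pdk1 and Pgm2. Points are arrays, bars the mean of 5 arrays, the dotted line the floor of 4.61, and open diamonds CL6G52 replicate 1 and P19 replicates 4 and 5. Pgm1, Aldoc and Eno2 are high in CL6G36 and CL6G45, and Pgm2 is high in CL6G52.

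CL6G26 was close to P19CL6 in these genes. Only Slc2a3 passed, and it was lower, while 1.24% of all genes passed in either direction and 0.819% were lower. Its log2 signals were 11.39, 11.28, 11.56, 11.38 and 11.16 in CL6G26, against 11.73, 11.78, 11.78, 11.61 and 11.78 in P19CL6. The arrays did not overlap, and the difference was -0.38 ± 0.06 (SE, n = 5 each; adjusted p = 0.000383, 1.30-fold lower). Tkt and Taldo1 also had no overlapping arrays, which makes 3 of 29 genes against 4.13% of all genes, but their differences of -0.14 and 0.22 did not pass (adjusted p = 0.623 and 0.125). Slc2a1 differed by -0.32 and Eno3 by -0.30 (adjusted p = 0.14 and 0.216). The median difference was -0.0147 over the 29 genes and -0.00766 over all genes. Under the deposited scaling the sign of the median turned, at 0.164 over the 29 genes and 0.125 over all genes, and 0 of the 29 passed by limma, with 2 at an unadjusted p under 0.05.

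CL6G52 differed from P19CL6 mainly in Pgm2. It had 7.07, 8.13, 8.04, 8.03 and 7.72 in CL6G52, against 6.75, 6.34, 6.62, 6.71 and 6.59 in P19CL6. All CL6G52 arrays lay above all P19CL6 arrays, with replicate 1 lowest, and Pgm2 was the only 1 of 29 genes so separated (4.89% of all genes were). The difference was 1.20 ± 0.13 (2.29-fold, adjusted p = 4.18e-07), and Pgm2 was the 1 gene that passed, while 3.19% of all genes passed in either direction, 1.39% higher and 1.8% lower, and 0.501% exceeded 2-fold. Pgm2 passed in all 21 alternatives. The median difference was -0.0354 over the 29 genes and -0.00696 over all genes.

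CL6G52 replicate 1 lay above replicates 2 to 5 in 22 of the 29 genes, below them in Pgm2 and Eno3, and among them in 5. The share of all genes placed in this way was not counted. Since this array stood apart over all probe sets, the count is not particular to the glucose genes. Aldoc shows the gap most clearly, at 9.09 in replicate 1 and 7.11, 7.21, 7.18 and 7.09 in the other 4 CL6G52 arrays. Without replicate 1, the Pgm2 difference was 1.38 (adjusted p = 8.51e-11, within a range of 8.51e-11 to 0.00221 over the alternatives), and 4 more genes passed, all lower in CL6G52: Aldoc (-0.59), Pdk1 (-0.67), Slc2a1 (-0.37) and Pfkl (-0.35). Their adjusted p values were 0.0382, 0.0252, 0.0081 and 0.0284, and over the alternatives with replicate 1 in none of the 4 passed. That makes 5 of 29 genes, against 4.89% of all genes in either direction, 1.93% higher and 2.97% lower, and the median difference was then -0.0914 over the 29 genes and -0.0106 over all genes.

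The 4 sublines were compared among themselves with 1 moderated F test per gene. Of the 29 genes, 15 differed, against 23.2% of all genes, and 3 of them had means at least 2-fold apart, as did 3.02% of all genes. The 15 were Slc2a1, Slc2a3 and Slc16a1 at transport, Pgm1 and Pgm2, Pfkl and Pfkp, Aldoa, Aldoc and Tpi1, Pgk1, Eno2, Eno3 and Pkm, and Tkt. No hexokinase, lactate dehydrogenase or pyruvate dehydrogenase-step gene passed on the probe set it was read from. On other probe sets, Ldhb (1434499_a_at), Pdk1 (1423747_a_at) and Pdha1 (1449137_at) passed (adjusted p = 0.015, 0.0183 and 0.0229). Pgd also passed on 1436771_x_at and 1437380_x_at (adjusted p = 0.00319 and 0.00454). The median range of the 4 means was 0.355 over the 29 genes and 0.372 over all genes. Without CL6G52 replicate 1, 20 of 29 differed, against 27.2% of all genes.

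The widest range was that of Aldoc, 1.35 between CL6G45 (8.89) and CL6G52 (7.54), with an adjusted p of 0.000218. Pgm2 had a range of 1.18 between CL6G52 (7.80) and CL6G26 (6.62), with an adjusted p of 3.51e-07, and Eno2 1.11 between CL6G36 (6.62) and CL6G26 (5.51), with an adjusted p of 0.0132. Pgm1 had a range of 0.98 (adjusted p = 6.8e-05): CL6G36 and CL6G45 were nearly level at 9.37 and 9.35, and CL6G52 and CL6G26 followed at 8.61 and 8.39. Slc2a3, with a range of 0.68, had the smallest adjusted p of the 29 genes, 1.04e-08, and its arrays differed little within a strain. Its order was CL6G36 at 12.04, CL6G45 at 11.84, CL6G52 at 11.63 and CL6G26 at 11.36, and among neighbours in this order only the arrays of CL6G52 and CL6G26 overlapped.

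Several genes hardly varied. Pgam1 had strain means between 10.90 and 11.02 over all 6 strains, and its range over the sublines was 0.05 (adjusted p = 0.843). Gapdh, read from its 6 control probe sets and not tested, had strain means between 12.42 and 12.98. Ldha had a range of 0.16 and Pdha1 of 0.14 over the sublines, and neither passed (adjusted p = 0.083 and 0.551), although a dimmer probe set of Pdha1, 1449137_at, did (adjusted p = 0.0229).

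**Figure D3:**
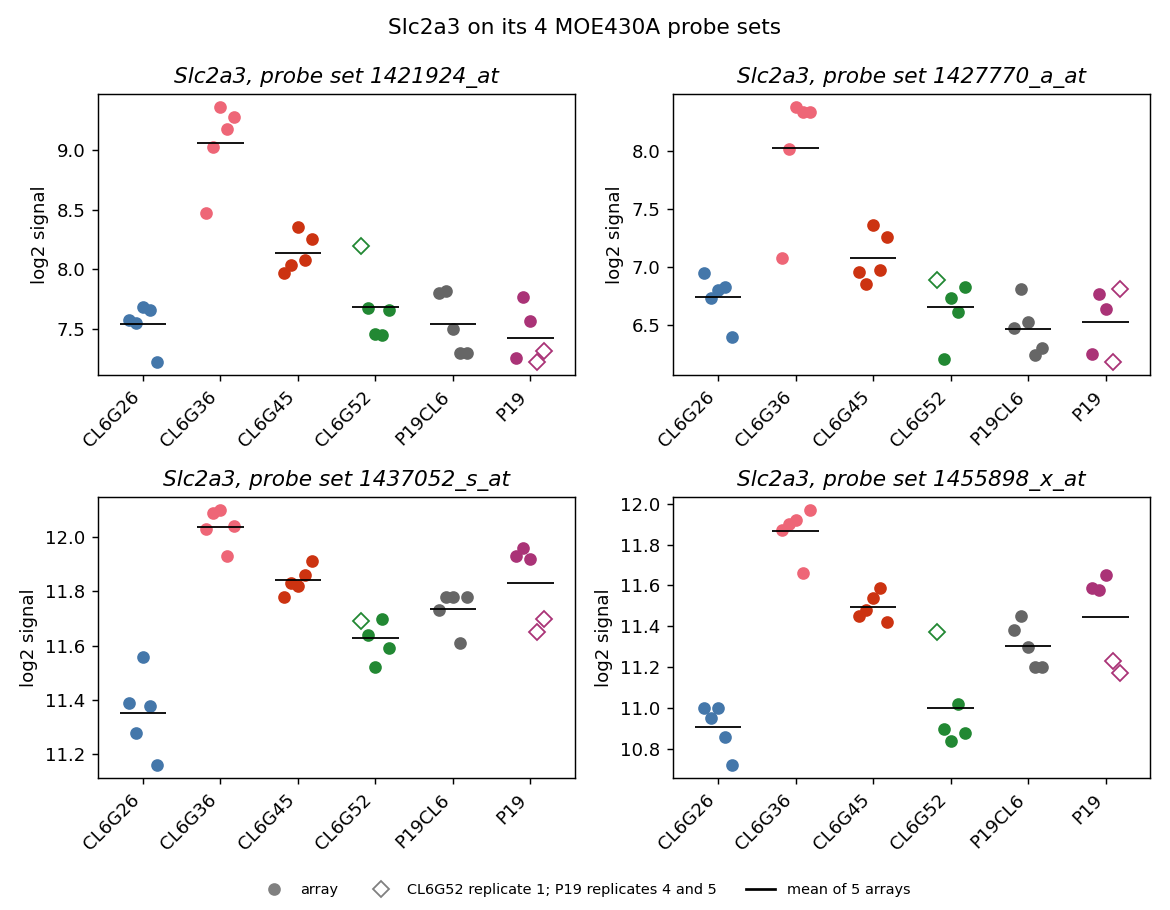
Log2 signal on each MOE430A array (y axis) by strain (x axis) for the 4 probe sets of Slc2a3. All 4 are higher in CL6G36 than in P19CL6, while the drop in CL6G26 appears in 1437052_s_at and 1455898_x_at and not in the other 2.

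Probe sets of 1 gene did not always move together. Slc2a3 has 4, and the brightest, 1437052_s_at, gave the values above. In CL6G36 all 4 were higher: 1421924_at by 1.52 and 1427770_a_at by 1.55 (adjusted p = 1.23e-08 and 3.41e-07), and the 2 bright ones by 0.31 and 0.56. The probe set 1421924_at had 8.47, 9.02, 9.36, 9.18 and 9.27 in CL6G36, against 7.80, 7.82, 7.50, 7.30 and 7.30 in P19CL6, with no overlap. In CL6G45 the 2 dimmer ones passed, by 0.59 and 0.61 (adjusted p = 0.00613 and 0.022), and the bright ones did not. In CL6G26 the 2 bright ones were lower, with differences of -0.38 and -0.40 (adjusted p = 0.000383 and 0.0151), and the dimmer ones differed by 0.27 or less without passing.

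For Slc2a1, which passed in neither subline on its brightest probe set, 1426600_at was 0.48 higher in CL6G36 (adjusted p = 0.0114) and 1426599_a_at was 0.28 higher in CL6G45 (adjusted p = 0.0335). The Pdha1 probe set 1449137_at was 0.36 higher in CL6G36 (adjusted p = 0.0104), where the brighter one differed by -0.01.

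Pgm1, Tkt, Pdk1, Pfkp, Pfkl, Aldoa and Pfkfb2 each have a tested MOE430B probe set that passed in no comparison. In CL6G36, where Pfkp, Pfkl and Aldoa were called on MOE430A, these differed by 0.63, -0.07 and 0.001 (adjusted p = 0.283, 0.908 and 0.999). Pfkfb3 in P19CL6 against P19 was called on 1416432_at, whereas its other probe set, 1456676_a_at, differed by -0.03 (adjusted p = 0.946). For Pdk1 the second MOE430A probe set, 1423747_a_at, differed by 0.57 in P19CL6 against P19 and did not pass (adjusted p = 0.0574). Tkt was also higher on 1439443_x_at, by 0.33 (adjusted p = 0.0125). Pgk1, which did not pass there on the probe set it was read from, was 0.64 higher in P19CL6 on 1439435_x_at (adjusted p = 0.0119). In CL6G36 and CL6G45, where Pgk1 was called, neither of its other probe sets passed. The brighter 1438640_x_at differed by 0.13 and -0.01 (adjusted p = 0.233 and 0.947). The dimmer 1439435_x_at differed by 0.23 and 0.38 (adjusted p = 0.264 and 0.0541). Hk1 had a second probe set, 1420901_a_at, which rose by 1.24 in CL6G36 and 0.84 in CL6G45 (adjusted p = 0.000929 and 0.0241). Pfkp passed as higher on the dim probe set 1430634_a_at in CL6G26, CL6G36 and CL6G45 (adjusted p = 0.0169, 0.000239 and 0.000557), but 4 of the 5 P19CL6 arrays were under the floor there, so no size is given. Ldhb, the other lactate dehydrogenase subunit, was lower in CL6G45 on 1434499_a_at alone, with a difference of -0.32 (adjusted p = 0.0249). Aldoa has no probe set free of the x_at mark, which stands for probes that may bind related transcripts.

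Genes outside glycolysis that low oxygen is known to induce were examined as a separate list of 21 tested genes. In P19CL6 against P19, 9 were higher, and none of the 21 passed in the other direction; 2.57% of all genes were higher, and the median was 0.419, against 0.00562 over all genes. The smallest adjusted p, 0.0119, was shared by the stress gene Ndrg1 (1.42), the HIF prolyl hydroxylases Egln1 (1.06) and Egln3 (0.58), and Ddit4 (0.86), a brake on mTORC1. Without P19 replicates 4 and 5, 14 were higher (10.5% of all genes), with a median of 0.756. In CL6G36 against P19CL6, 7 were higher (6.85% of all genes) with a median of 0.456, led by Egln3 (0.86), Anxa2 (1.17) and the collagen prolyl hydroxylase P4ha2 (0.98), with adjusted p of 7.92e-06, 2.3e-05 and 0.000991. In CL6G45 9 were higher (6.55% of all genes) with a median of 0.366, led by Egln3 (0.61), Anxa2 (0.85) and Narf (0.76), with adjusted p of 0.000788, 0.0012 and 0.00144. In CL6G26 and CL6G52 0 passed by limma, with 2 and 0 at an unadjusted p under 0.05 and medians of -0.0428 and -0.0691. The list and the glucose genes were read on the same arrays, and whether they share a cause was not tested.

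Of 17 tested regulators of glycolytic genes, Myc was the 1 that passed in P19CL6 against P19, higher by 0.60 (adjusted p = 0.0155), while 4.45% of all genes passed. In CL6G36 2 of the 17 passed, a share near the 13.6% of all genes that did: the HIF-1 subunits Arnt, higher by 0.81, and Hif1a, by 0.27 (adjusted p = 5.67e-05 and 0.028). In CL6G45, 3 were higher and 3 lower, against 6.55% and 6.68% of all genes. Myc was lower by 0.72 (adjusted p = 0.000576), whereas Mycn was higher by 0.68 (adjusted p = 0.0338). Arnt and Hif1a were higher by 0.50 and 0.28 (adjusted p = 0.00871 and 0.0206). In CL6G26 and CL6G52 0 passed by limma, with 4 and 3 at an unadjusted p under 0.05.

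**Figure D4:**
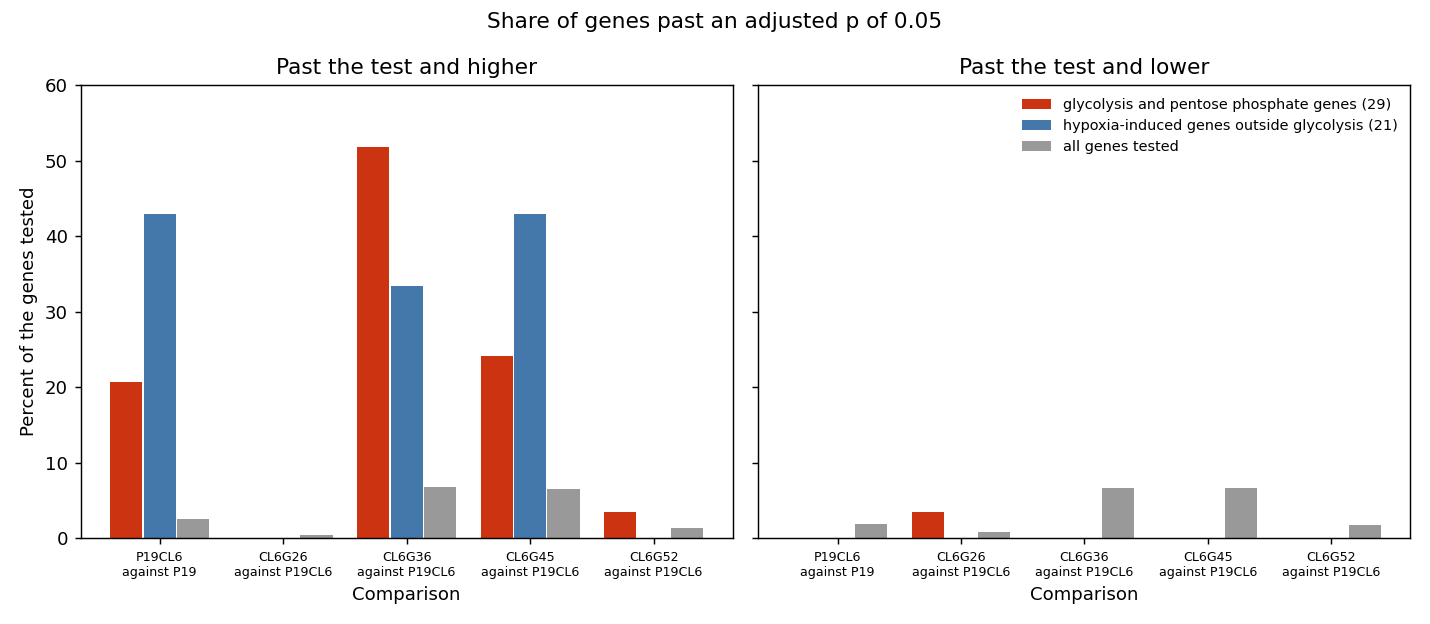
Percent of genes (y axis) with a limma adjusted p under 0.05 and higher or lower in the first-named strain, for the 29 glucose genes, the 21 hypoxia-induced genes outside glycolysis and all 13181 genes, in 5 comparisons (x axis). For CL6G36 against P19CL6, 15 of 29 glucose genes and 7 of 21 hypoxia-induced genes were higher, against 6.85% of all genes.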

How the data were processed

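Per the labels, biotin-labelled cRNA from 6 strains, 5 replicates each, was hybridised to MOE430A and MOE430B arrays. The deposited values are GCOS signals, a linear intensity per probe set, per the submitters' processing notes; their scaling target is not stated in the sources at hand, and scanner files were not used here. From these values arrays were quantile normalized within an array type and then converted to log2 with 1 as the lowest signal allowed. Of 45137 probe sets without controls, 27199 above the floor (40th percentile of the array on MOE430A, 60th on MOE430B) on at least 5 of 30 arrays were tested. A gene was read from its brightest probe set, with x_at probe sets last and MOE430A before MOE430B. Tests used limma 3.58.1 in R 4.3.3: 1 mean per strain was fitted to the 30 arrays of a type, variances were moderated with eBayes (trend on), tests were two-sided, and p-values were adjusted by Benjamini-Hochberg within each type. The SE is that of the fit.

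The genes, the further lists and the tests were chosen with earlier results of these data known. All 33 genes are described. Of each further list, up to 3 genes past the test with the smallest adjusted p are named, or 4 where adjusted p values tied. Nanog, Utf1, Tdgf1, Foxa2, Mixl1, Dab2, Mycn, Pcx in CL6G45 and single probe sets were named after their values were seen. No 2 deposited columns were identical (0 pairs). The number of arrays limits the precision. Tested on simulated data for CL6G36 against P19CL6, the fit over 15068 MOE430A probe sets recovered 50% of differences of 0.5 and 85% of differences of 1, with 10 false calls. Alternatives were the deposited scaling, a trimmed-mean scaling, other filters, an offset, no trend, only the strains compared, the mean of a gene's probe sets, a replicate block, and arrays left out.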

Additional observations from a re-analysis of the deposited data

Results flagged for a closer look

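In 14 of 174 groups of 5 arrays (a gene in a strain), 1 array stood apart from the other 4 by Dixon's criterion; chance alone gives about 1 in 20. Of the 14, 4 were CL6G52 replicate 1, which was high for Aldoc at 9.091 (the other 4 at 7.094 to 7.211), for Pfkl at 11.03 (10.16 to 10.29), for Pfkm at 9.323 (8.52 to 8.72) and for Pfkp at 7.328 (6.223 to 6.39). These are log2 signals, and the array also stood apart over all probe sets.

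In P19CL6, Slc2a3 was low in replicate 4 at 11.61, Slc16a3 high in replicate 3 at 9.653, Hk2 low in replicate 3 at 9.903 and Pgam1 low in replicate 5 at 10.78. In CL6G45, Hk1 was low in replicate 2 at 7.365, Pfkp high in replicate 5 at 7.71 and Taldo1 high in replicate 1 at 9.395, though this last lay within 0.1 of the others. In CL6G36, Pfkfb3 was low in replicate 1 at 5.913 and Pgd high in replicate 3 at 9.272. In P19, Pfkp was low in replicate 5 at 5.944.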

How the results depend on the processing

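No direction of a gene past the test reversed under any alternative. For P19CL6 against P19 (6 genes past), the deposited scaling gave 1 (0.364% of all genes), no trend 3, only the strains compared 0 (11 at an unadjusted p under 0.05), the fit without P19 replicates 4 and 5 gave 17 and without P19CL6 replicates 1 and 2 gave 0; leaving out 1 array gave 0 to 11, with 3 without P19CL6 replicate 1 or 2. For CL6G26 (1 past), the deposited scaling and the mean of the probe sets gave 0, with 2 and 8 at an unadjusted p under 0.05. For CL6G36 (15 past), the deposited scaling gave 1 (2.5% of all genes), the trimmed mean 9, the fit without P19CL6 replicates 1 and 2 gave 9, and leaving out 1 array 9 to 12. For CL6G45 (7 past), the deposited scaling gave 3 (2.92% of all genes), only the strains compared 12, and leaving out 1 array 5 to 7. For CL6G52 (1 past), the trimmed mean gave 2 and leaving out 1 array 1 to 5, the 5 without CL6G52 replicate 1. For the sublines among themselves (15 past), the deposited scaling gave 3 (9.25% of all genes) and leaving out 1 array 13 to 20. P19 replicates 4 and 5 enter the subline tests through the shared spread. Without them, 1, 17, 8 and 2 of the 29 genes passed in CL6G26, CL6G36, CL6G45 and CL6G52 against P19CL6. The shares of all genes were then 2%, 16%, 15.5% and 4.55%. Among the sublines 19 then passed, against 27% of all genes. In CL6G36, 16 of the 17 were higher and 1 was lower. Apart from the arrays left out, the cause was not tested. The deposited scaling moved the median of all genes by 0.125 in CL6G26, 0.122 in CL6G45 and 0.107 in CL6G52. Deviations of arrays with the same replicate number correlated between -0.0993 and 0.084 in the 5 comparisons, and between -0.154 and 0.112 among the sublines. Low correlations cannot show that samples with the same number were handled apart, and the labels do not say. With the replicate block 5, 1, 13, 6, 1 and 14 genes passed in the 6 comparisons. Small differences, such as that of Pfkl in CL6G36, passed in 6 of 21 alternatives, and genes near the floor, such as Pfkfb2, limit what can be read.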

Other observations

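In glycogen and sugar nucleotide metabolism, 2 of 15 tested genes were higher in P19CL6 than in P19 (2.57% of all genes were), the glycogen synthase Gys1 by 0.88 and Ugp2, which makes UDP-glucose, by 0.41 (adjusted p = 0.034 and 0.0149). In CL6G36 and in CL6G45 2 of the 15 were higher than in P19CL6, against 6.85% and 6.55% of all genes. These were Gys1, by 1.05 and 0.90 (adjusted p = 0.00306 and 0.0114), and Galt of galactose use, by 0.75 and 0.39 (adjusted p = 1.59e-07 and 0.00158).

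Of 21 tested genes of side branches and gluconeogenesis, 1 was higher and 1 lower in P19CL6 than in P19, against 2.57% and 1.88% of all genes. In CL6G36 2 were higher and 1 lower than in P19CL6, and in CL6G45 4 were higher, against 13.6% and 13.2% of all genes in either direction. The count in CL6G36 is near the share of all genes. Pck2, the mitochondrial phosphoenolpyruvate carboxykinase, was higher by 1.08 in CL6G36 and 0.85 in CL6G45 (adjusted p = 1.09e-05 and 0.00033). The pyruvate carboxylase Pcx was higher by 0.43 in CL6G36 and 0.46 in CL6G45 (adjusted p = 0.0188 and 0.0127). In CL6G45 the sugar transporter Slc2a8 was higher by 0.80 and the aldose epimerase Galm by 0.55 (adjusted p = 0.000142 and 0.00139). Bpgm, which makes 2,3-bisphosphoglycerate, was lower by 0.54 in P19CL6 than in P19 (adjusted p = 0.0348). G6pc3, a glucose 6-phosphatase, passed as higher in P19CL6 than in P19 and as lower in CL6G36 than in P19CL6 (adjusted p = 0.0185 and 0.00189), but 2 of 5 P19 arrays and 1 of 5 CL6G36 arrays were above the floor, so no size is given. In CL6G52 the glycerol phosphate dehydrogenase Gpd2 was the 1 that passed, higher by 0.41 (adjusted p = 0.0118), while 3.19% of all genes passed.

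In the rest of the pentose phosphate pathway and NADPH supply, 2 of 14 tested genes were higher and 4 lower in CL6G45 than in P19CL6, against 6.55% and 6.68% of all genes. H6pd, the dehydrogenase of the endoplasmic reticulum, passed as lower (adjusted p = 7.7e-05), with every CL6G45 array under the floor and no size given. Prps2, which makes phosphoribosyl pyrophosphate from ribose phosphate, differed by -0.69, and the ribose phosphate isomerase Rpia by -0.48 (adjusted p = 0.00823 and 0.00825). In CL6G36 the NADP-dependent dehydrogenase Idh2 differed by 0.35 and Rpia by -0.40 (adjusted p = 0.00153 and 0.0251). In CL6G52 2 of the 14 were higher (1.39% of all genes were), Prps2 by 1.02 and Prps1 by 0.49 (adjusted p = 0.000697 and 0.00876).

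In the tricarboxylic acid cycle, 2 of 17 tested genes were higher in P19CL6 than in P19 (2.57% of all genes were), Sucla2 by 0.71 and Mdh1 by 0.44 (adjusted p = 0.0119 and 0.0151). In CL6G36 3 were higher and 1 lower than in P19CL6, against 6.85% and 6.71% of all genes. Suclg2 differed by 0.37, the malate dehydrogenase Mdh2 by -0.31 and Sdha by 0.26 (adjusted p = 0.000985, 0.0083 and 0.0202). In CL6G45 1 was higher and 2 lower, against 6.55% and 6.68% of all genes. The citrate synthase Cs differed by 0.33, Mdh2 by -0.28 and Sdhc by -0.23 (adjusted p = 0.0071, 0.0205 and 0.0374). Of 9 tested genes for the entry of pyruvate into the mitochondria, 2 were higher and 1 lower in CL6G36, against 6.85% and 6.71% of all genes. The citrate carrier Slc25a1 differed by 0.62, the pyruvate dehydrogenase subunit Pdhb by 0.30 and the pyruvate carrier subunit Mpc1 by -0.60 (adjusted p = 0.000932, 0.0243 and 0.0393). In CL6G45 Slc25a1 was the 1 of these 9 that passed, higher by 0.42 (adjusted p = 0.0404), while 13.2% of all genes passed in either direction. The comparisons of sublines share the P19CL6 arrays.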
